A study of Mus musculus with 8 samples.

Results

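The genes described here are those with which Leydig cells, the hormone-making cells between the seminiferous tubules of the testis, take up the signal for steroid production, turn cholesterol into testosterone and make the peptide INSL3. The list named 9 genes, and every probe set annotated to exactly 1 of them was used. The short probes designed against 1 transcript form a probe set, which gives 1 value per array. The array carried 11 such probe sets for 8 of the 9 genes, out of 12422 probe sets in all. Lhcgr, the receptor through which luteinising hormone acts on Leydig cells, had no probe set and is not analysed here. A further probe set annotated to Insl3 together with a neighbouring gene was not used.

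Total RNA from testis was hybridised to 8 Affymetrix arrays, in 4 groups of 2. The groups are the mice titled Mus musculus castaneus, Mus musculus domesticus, Mus musculus musculus and Mus musculus ssp, called here castaneus, domesticus, musculus and ssp. The meaning of ssp, the age of the mice, their number and how they were kept are not stated in the sources used here, and no treatment is named. The labels call the 2 arrays of a group technical replicates, so the p-values measure only the spread between arrays, and a call compares 4 RNA samples and not the populations they came from.

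Testosterone synthesis starts when luteinising hormone raises cyclic AMP in the Leydig cell. STAR then moves cholesterol to the inner mitochondrial membrane, where CYP11A1 cuts its side chain to give pregnenolone. The 3-beta-hydroxysteroid dehydrogenases, CYP17A1 and HSD17B3 complete the path to testosterone in the endoplasmic reticulum. The nuclear receptor SF-1, encoded by Nr5a1, is known to act on the promoters of most of these genes. In RNA of whole testis, more Leydig cells and more transcript per Leydig cell cannot be told apart.

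The tissue label was checked on spermatid genes. The probe set of Prm1, a protamine, read 43402 to 83529 intensity units over the 8 arrays and that of Tnp2, a transition protein, 49943 to 84310. The second protamine gene, Prm2, read only 114 to 428.5. Array medians ran from 151 to 183. The 2 ssp arrays correlated less with each other (r = 0.877) than the 2 arrays of any other group (0.911 to 0.916). The ssp replicate 1 array correlated more with castaneus replicate 1 than with its own replicate. Each of the other 7 arrays was nearest to its own, ssp replicate 2 included. These values do not show which of the 2 ssp arrays was the unusual one.

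Star and Cyp17a1 differed among the 4 groups by limma's moderated F test, each by its brighter probe set, with the highest values in musculus and the lowest in ssp. A call needed an adjusted p under 0.05 over all 8874 probe sets tested and group means at least 2-fold apart. These are 2 of the 11 probe sets, against 1.76% of all probe sets tested. All 11 passed the filter on dim probe sets. By unadjusted p under 0.05, 6 of the 11 differed, against 15.9%. Both calls were lost when any 1 of the 8 arrays was left out, ssp replicate 1 included (adjusted p = 0.0687 for Star and 0.0643 for Cyp17a1 without it). Both were also lost without the filter (adjusted p = 0.0572 for each), which also ended the musculus calls of Star and Hsd3b1 described next (0.0538 and 0.0605).

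Against the mean of the other 3 groups, Cyp17a1, Star and Hsd3b1 were higher in musculus, 3 of the 11 probe sets against 0.530% of all tested in that direction. Of the 11 probe sets, 10 had a positive difference in musculus, against 50.7% of all tested. With each gene taken at its brightest probe set, all 8 genes had a positive difference, and the median of the 8 was 1.26 on the log2 scale, or 2.39-fold, beside a median of 0.01 over all probe sets tested. Both musculus arrays lay above all 6 other arrays for 6 of the 11 probe sets, against 6.37% of all tested. These 6 belong to 5 genes, since Hsd3b1 has 2 of them. Musculus had the highest group mean for 7 of the 11, against 25.6%. In ssp, 1 of the 11 was called lower, that of Star, against 0.372% of all tested, and both ssp arrays lay below the other 6 for 3 probe sets, of Star, Cyp17a1 and Hsd17b3, against 5.17%. No member was called in castaneus or in domesticus against the mean of the others by limma, where 0.518% and 0.541% of all tested were called. At an unadjusted p under 0.05 there were 3 members in castaneus, against 11.7%, and 4 in domesticus, against 11.6%. No member was called between castaneus and domesticus (0.676% of all tested), or between castaneus and ssp (0.349%). At an unadjusted p under 0.05 these pairs had 3 members, against 11.0%, and 4, against 10.8%. Leaving out 1 array left 0 or 1 of the 3 musculus calls, the 1 being Cyp17a1 without ssp replicate 1. Without that array the log2 differences in musculus were 1.95 for Cyp17a1 (adjusted p = 0.0423), 1.55 for Star (0.0545) and 1.71 for Hsd3b1 (0.0628).

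**Figure D1:**
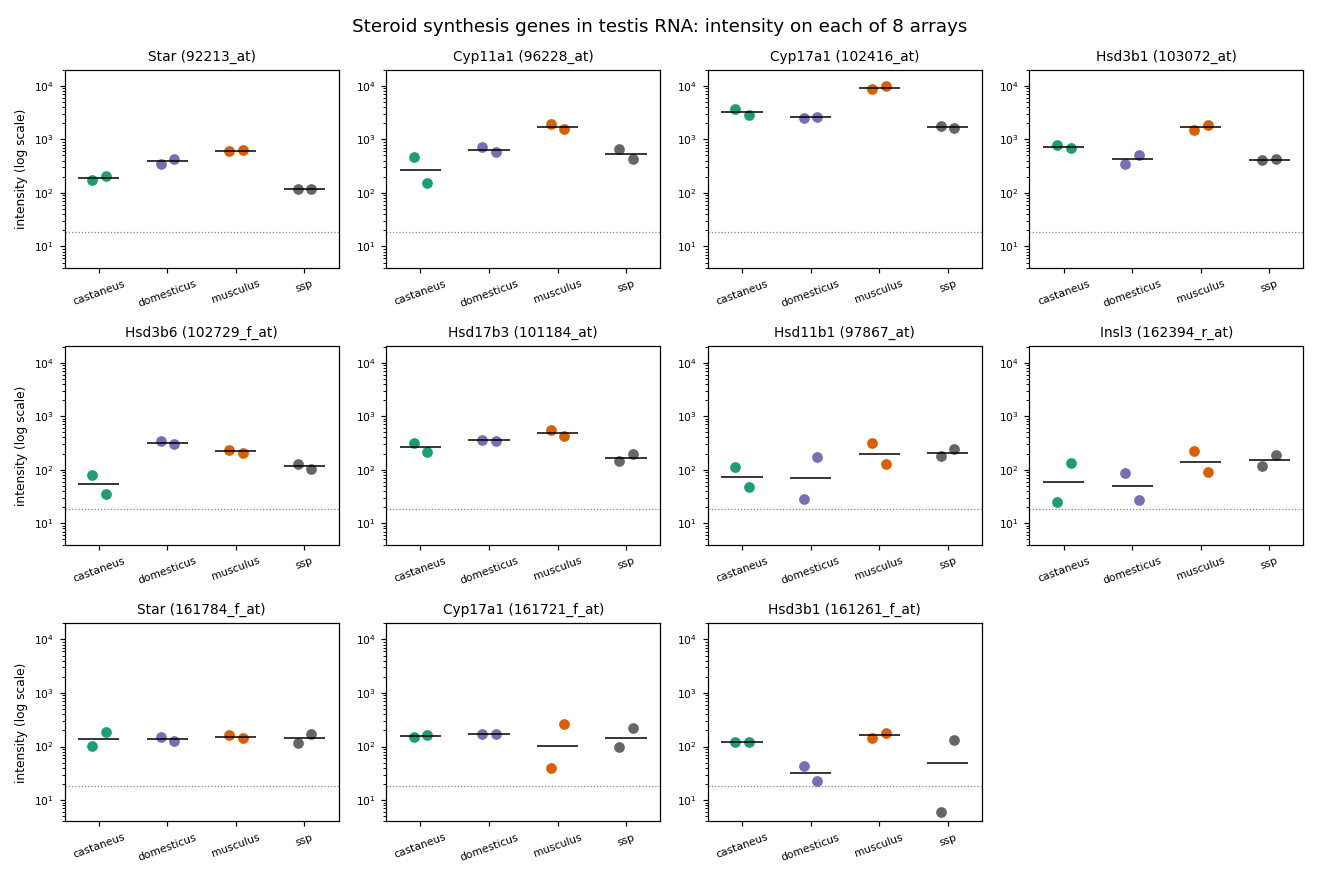
Intensity on a log axis for each of the 11 probe sets, with 1 point per array, a bar at the geometric mean of the 2 arrays of a group and a dotted line at the floor of 18.7. Both musculus points lie above all others for Cyp11a1, Hsd17b3, both Hsd3b1 probe sets and the brighter probe sets of Star and Cyp17a1, which come first. For Hsd3b6, Hsd11b1, Insl3 and the dimmer probe sets of Star and Cyp17a1 they do not.

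Star encodes the protein that delivers cholesterol to the first enzyme, the step known to limit the rate of steroid synthesis. The gene (Entrez gene 20845) lies at chr8:25808474-25815982 in GRCm38.p6, the build of all positions given here. Its brighter probe set read 593.9 and 620.7 in musculus, 351.7 and 437.3 in domesticus, 174.9 and 206.3 in castaneus, and 118.2 and 120.8 in ssp. No 2 groups overlapped, and the replicates of a group differed by at most 1.24-fold. The share of all tested probe sets with 4 groups apart was not computed, here or for Cyp17a1, Hsd3b6 and Hsd17b3 below. The geometric means fell in the order musculus (607.2), domesticus (392.2), castaneus (190) and ssp (119.5), a 5.08-fold span (limma F test, adjusted p = 0.0321).

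Neighbours in that order did not pass the test, and the pairs further apart did. Star was 5.08-fold higher in musculus than in ssp (log2 difference 2.35, SE 0.25, limma adjusted p = 0.0237), where 0.609% of all tested were called higher. It was 3.20-fold higher in musculus than in castaneus (adjusted p = 0.0455), with 0.496% of all tested called in that direction, and 3.28-fold higher in domesticus than in ssp (adjusted p = 0.0499), with 0.462%. Against the mean of the other groups Star was 2.93-fold higher in musculus (SE 0.20 log2, adjusted p = 0.0308). In ssp it was lower, by 2.98-fold (log2 difference -1.58, adjusted p = 0.0404), and this call was lost with the arrays centred on their medians (adjusted p = 0.0553, and 0.0553 to 0.172 over the alternatives that lost it).

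A second, dimmer Star probe set, whose name ends in _f_at, showed no such order. It read 103.8 to 187.4 over the 8 arrays, with group means between 139.5 in castaneus and 152.8 in musculus (limma F test, adjusted p = 0.993). Its values sat near the middle of each array, between the 39.3rd and the 53.3rd percentile. In Affymetrix names an f marks probes shared by a gene family, and an r a set for which some rules of probe choice were dropped.

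Cyp11a1 encodes the side-chain cleavage enzyme, and lies at chr9:57998024-58027031 (Entrez gene 13070). The single probe set read 1956 and 1530 in musculus, 711 and 572.6 in domesticus, 660.2 and 424.2 in ssp, and 467.7 and 153.9 in castaneus. Both musculus arrays were above all others, and the 3 lower groups overlapped. The means were 1730 in musculus, 638.1 in domesticus, 529.2 in ssp and 268.3 in castaneus. The difference of musculus from the mean of the others, 3.85-fold, was as large as that of Cyp17a1 but did not pass (log2 difference 1.95, SE 0.45, limma adjusted p = 0.137). The 2 castaneus arrays lay 3.04-fold apart, and the largest contrast, 6.45-fold between musculus and castaneus, did not pass either (adjusted p = 0.0968). With the trended and robust variance model Cyp11a1 passed the F test (adjusted p = 0.0315) and the test against the mean of the others in musculus (0.0212, and 0.0212 to 0.511 over all alternatives).

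Cyp17a1 encodes the enzyme that makes androgen precursors from the first steroids, and lies at chr19:46667165-46673000 (Entrez gene 13074). Its brighter probe set stood between the 90.9th and the 98.8th percentile of every array. It read 8656 and 9709 in musculus, 3715 and 2791 in castaneus, 2508 and 2616 in domesticus, and 1794 and 1608 in ssp. Both musculus arrays were above and both ssp arrays below all others, and domesticus and castaneus did not overlap but lay close together.

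The group means of Cyp17a1 spanned 5.40-fold, from 9168 in musculus to 1698 in ssp (limma F test, adjusted p = 0.0339). Musculus was 5.40-fold above ssp (log2 difference 2.43, SE 0.26, adjusted p = 0.0237) and 3.58-fold above domesticus (adjusted p = 0.0422), where 0.316% of all tested were called in that direction. The 2.85-fold difference from castaneus, the nearest group, did not pass (adjusted p = 0.0628), nor did those between castaneus and domesticus (1.26-fold) and domesticus and ssp (1.51-fold). A second, dimmer probe set of the _f_at kind read 40.2 and 259.8 on the 2 musculus arrays and 97.4 to 222.9 on the others. Its musculus replicates lay 6.46-fold apart, across the whole range of the other groups, and it did not differ among the groups (adjusted p = 0.922).

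Hsd3b1 and Hsd3b6 encode 3-beta-hydroxysteroid dehydrogenases, which convert pregnenolone and its derivatives to the steroids that lead to testosterone. They are close relatives that lie 27.9 kb apart, Hsd3b6 (Entrez gene 15497) at chr3:98805504-98814443 and Hsd3b1 (Entrez gene 15492) at chr3:98842356-98859794, and both are known to be expressed in Leydig cells of the adult mouse. The probe set of Hsd3b6 is of the _f_at kind, so signal from related transcripts cannot be told from that of Hsd3b6.

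The bases upstream of both genes are shown because the 2 neighbours are close relatives with different group orders of their means, a difference that was not tested, and those of Insl3 because it is the other member with a match to the SF-1 motif. They are RefSeq sequences of build GRCm38.p6, given 5′ to 3′ on the strand of the gene for the 250 bases before the annotated start. The sequences of the mice used here were not examined, and a link of the letters to the group differences was not tested. Capitals mark the letters TCAAGG or CAAGGNC on either strand, overlapping matches joined.

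Hsd3b1, chr3:98859795-98860044, minus strand: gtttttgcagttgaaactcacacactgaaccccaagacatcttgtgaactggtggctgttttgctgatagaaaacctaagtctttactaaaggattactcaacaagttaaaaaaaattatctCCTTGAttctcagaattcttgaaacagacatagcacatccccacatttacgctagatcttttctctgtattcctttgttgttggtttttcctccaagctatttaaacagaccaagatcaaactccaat
Hsd3b6, chr3:98814444-98814693, minus strand: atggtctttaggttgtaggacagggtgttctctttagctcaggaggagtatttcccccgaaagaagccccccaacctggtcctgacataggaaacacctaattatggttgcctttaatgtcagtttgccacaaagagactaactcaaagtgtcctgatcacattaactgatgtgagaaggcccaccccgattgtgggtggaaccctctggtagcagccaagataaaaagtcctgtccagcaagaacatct
Insl3, chr8:71689002-71689251, plus strand: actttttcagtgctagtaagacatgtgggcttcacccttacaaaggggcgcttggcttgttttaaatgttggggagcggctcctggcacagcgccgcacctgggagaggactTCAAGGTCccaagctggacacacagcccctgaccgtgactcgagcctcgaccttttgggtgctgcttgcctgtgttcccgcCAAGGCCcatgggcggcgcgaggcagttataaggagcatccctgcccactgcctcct

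SF-1 is known to bind sequences built on CAAGG. Of the 8 genes measured, 6 had an upstream window in the table, 7 windows in all with 2 for Cyp11a1, and 2 windows held a match. Hsd3b1 held TCAAGG on the opposite strand, from 128 to 123 bases before the start. Insl3 held TCAAGG and CAAGGTC in 1 overlapping stretch and CAAGGCC from 57 to 51 bases before the start. Over all 32851 windows of this length in the table, 12.5% held TCAAGG, 15.0% CAAGGNC and 22.7% either. A match describes the letters only. Star and Cyp17a1 were not among the 6.

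Hsd3b1 by its brighter probe set read 1476 and 1885 in musculus, 792.6 and 679.6 in castaneus, 351.9 and 504.6 in domesticus, and 416.5 and 424.2 in ssp. Both musculus arrays were highest and both castaneus arrays next, while domesticus and ssp overlapped with means of 421.4 and 420.3. Musculus was 3.29-fold above the mean of the others (log2 difference 1.72, SE 0.24, limma adjusted p = 0.0345), 3.97-fold above ssp (adjusted p = 0.0419) and 3.96-fold above domesticus (adjusted p = 0.0493). The 2.27-fold difference from castaneus did not pass (adjusted p = 0.157), and neither did the F test among the 4 groups (adjusted p = 0.0548). The call against the mean of the others was lost with the arrays centred on their medians (adjusted p = 0.0588, and 0.0022 to 0.219 over all alternatives).

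The second Hsd3b1 probe set, of the _f_at kind, was dim. It read 146.7 and 177.3 in musculus, 120.4 and 121.6 in castaneus, 44 and 22.7 in domesticus, and 6.1 and 130.2 in ssp, where the first of the arrays was below the floor. Musculus was again above all others and castaneus above domesticus, while the lowest mean was that of domesticus and the ssp arrays lay far apart, with no call (F test, adjusted p = 0.411).

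Hsd3b6 had another order. It read 339.5 and 303.7 in domesticus, 237.7 and 207 in musculus, 129.5 and 104.1 in ssp, and 80.8 and 35.5 in castaneus, and no 2 groups overlapped. Both domesticus arrays were above the other 6, as for 6.13% of all tested, and both castaneus arrays below them, as for 5.44%. The 6-fold difference between castaneus and domesticus did not pass (log2 difference -2.58, SE 0.41, limma adjusted p = 0.0669), nor did the F test (adjusted p = 0.0854). The F test passed for Hsd3b6 in 1 of its 16 alternatives, the filter at the 60th percentile (adjusted p = 0.0332, and 0.0332 to 0.232 over the 16). Between castaneus and domesticus, Hsd3b1 pointed the other way, 1.74-fold higher in castaneus without passing (adjusted p = 0.376).

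Hsd17b3 encodes the enzyme that reduces androstenedione to testosterone in the testis, and lies at chr13:64058274-64089262 (Entrez gene 15487). It read 544.8 and 423.7 in musculus, 364.1 and 348.7 in domesticus, 319.1 and 218.7 in castaneus, and 143.3 and 194.2 in ssp. The 4 groups did not overlap and stood in the order of Star, but the span of 2.88-fold was smaller and did not pass (limma F test, adjusted p = 0.17). Musculus lay 1.92-fold above the mean of the others (adjusted p = 0.179) and ssp 2.14-fold below it (adjusted p = 0.176).

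Hsd11b1, at chr1:193221640-193264045 (Entrez gene 15483), encodes the enzyme that interconverts active and inactive glucocorticoids, which is known to be abundant in Leydig cells. Its arrays read 320 and 125.7 in musculus, 178.9 and 242.4 in ssp, 110.8 and 48.4 in castaneus, and 28.4 and 175.7 in domesticus. The domesticus replicates lay 6.19-fold apart, reaching from below castaneus to above the lower musculus array, and there was no call (F test, adjusted p = 0.59).

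Insl3, at chr8:71689252-71690577 (Entrez gene 16336), encodes the Leydig cell peptide that acts in testis descent. Its probe set, of the _r_at kind, read 219.2 and 89.2 in musculus, 116.9 and 191.8 in ssp, 25 and 135.7 in castaneus, and 87.9 and 27.4 in domesticus. Replicates differed by 1.64-fold to 5.43-fold, and no call was made (F test, adjusted p = 0.626). At a median of 103 over the arrays the probe set lay between the 14.9th and the 54.4th percentile. Its difference in musculus from the mean of the others was 0.89 on the log2 scale with an SE of 0.78, beside an SE of 0.20 for Star. With 1 array left out it ran from 0.24, without musculus replicate 1, to 1.54, without musculus replicate 2, and that of Hsd11b1 ran from 0.29 to 1.64 without the same arrays. Musculus and ssp were within 1.1-fold of each other for both Hsd11b1 and Insl3. Which of these 2 groups was the highest changed with the scaling: ssp as deposited, musculus with median centring or quantile normalization. The probe set annotated to both Insl3 and Jak3, which was not used, read 131.5 and 91.4 in musculus, within the 90.6 to 186.3 of the other arrays.

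**Figure D2:**
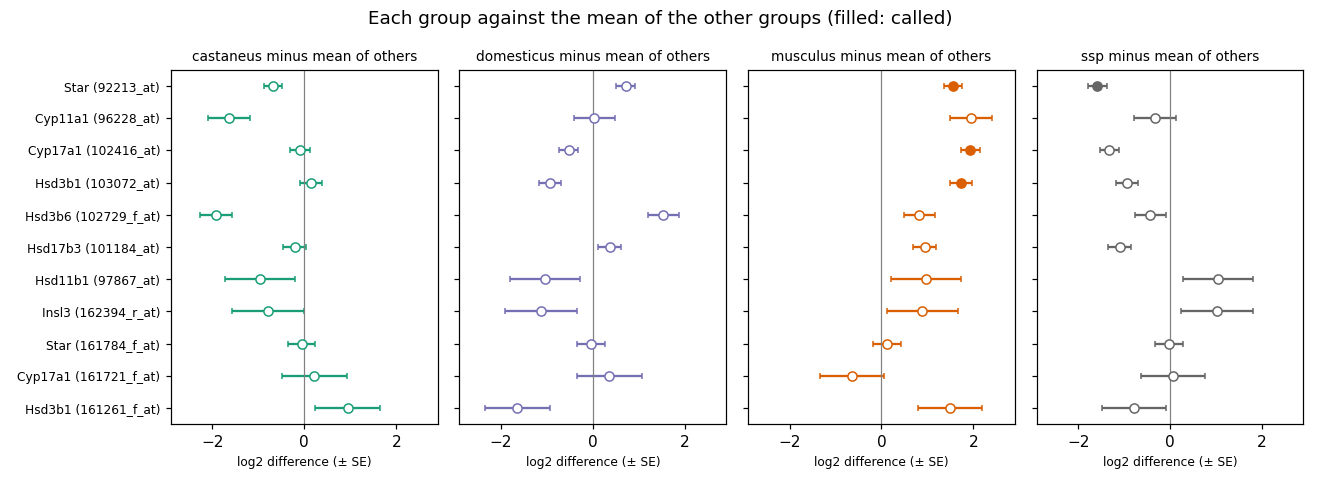
Log2 difference of each group from the mean of the other 3 groups, with its standard error from limma, for the 11 probe sets. Filled points were called: Star, Cyp17a1 and Hsd3b1 in musculus (1.55, 1.93 and 1.72) and Star in ssp (-1.58).

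Across the 8 arrays the members did not all follow each other. Taken at their brightest probe sets, Cyp17a1 and Hsd3b1 had a Pearson r of 0.95 and Star and Hsd17b3 0.91. Next came Cyp17a1 and Hsd17b3 with 0.81, Star and Cyp17a1 with 0.80 and Cyp11a1 and Hsd3b6 with 0.76. Hsd3b6 had an r of 0.03 with Hsd3b1 and 0.26 with Cyp17a1. Hsd11b1 had an r between 0 and 0.44 with every other member, and Insl3 between -0.15 and 0.18. These values rest on 8 arrays of 4 RNA samples, and each array's scaling is shared by all genes on it.

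The shared pattern of the 8 genes was summarised as the mean of their log2 values after each was centred on its own mean. It stood at 1.19 and 0.82 in musculus, -0.17 and -0.01 in domesticus, -0.37 and -0.31 in ssp, and -0.42 and -0.73 in castaneus. Both musculus arrays were highest and both castaneus arrays lowest. Cyp11a1 had the highest r with this pattern (0.91) and Insl3 the lowest (0.26). Each gene is part of the pattern, so its r is partly with itself, and genes with wide differences weigh more. With single other members Cyp11a1 had an r of 0.14 to 0.76.

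Among all other tested probe sets with 1 gene symbol, Scd1, the stearoyl-CoA desaturase that makes monounsaturated fatty acids, was most like it (r = 0.984 over 8 arrays). Scd1 read 1400 and 1071 in musculus and 353.2 to 537.1 on the other 6 arrays, and did not pass the F test (adjusted p = 0.0953). Next came Ptgds, the lipocalin-type prostaglandin D synthase (r = 0.970), whose other 2 probe sets were also highest on both musculus arrays. All of its probe sets are of the _f_at or _r_at kind. Then came Crtap and Pcolce, both proteins of collagen processing (r = 0.961 and 0.958). Mat1a, a methionine adenosyltransferase that lay near the floor outside musculus, Strap, Ypel3 and Vcam1, a cell adhesion molecule, followed with r between 0.954 and 0.952. Mat1a reached the filter only through its musculus arrays (124.7 and 103.7, against 16.5 to 40.9). For all 8 genes both musculus arrays were above the other 6, against 6.37% of all tested. This follows from the choice, since the 8 were picked for likeness to a profile that is highest in musculus. Of the 8, Ptgds, Crtap and Pcolce differed among the groups (limma F test, adjusted p = 0.018, 0.0371 and 0.0324). Over all tested the share was 1.76%, which is no fair comparison for genes picked by their pattern. Vcam1 was named by 1 of its 3 probe sets, and its other 2 were highest in domesticus, at 1226 and 1294 for the one and 1550 and 1299 for the other.

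**Figure D3:**
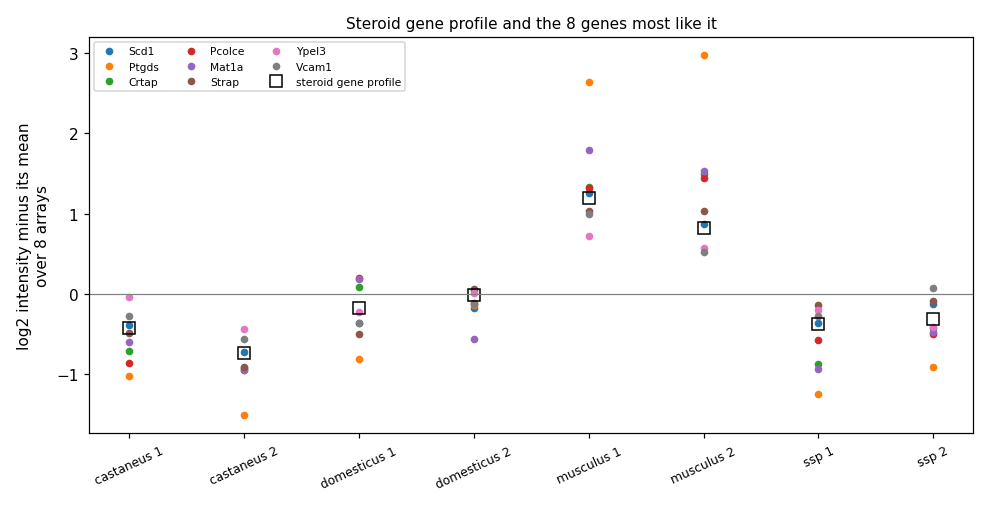
Log2 intensity minus its mean over the 8 arrays. Open squares give the mean profile of the 8 genes measured, labelled steroid genes with Insl3 included. Points give the 8 other genes whose pattern was most like it. The squares stand at 1.19 and 0.82 on the musculus arrays and between -0.73 and -0.01 on the other 6.

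Lists of the other genes of steroid production held 75 genes, of which 44 were tested. None of the 44 differed among the 4 groups by limma's F test, against 1.76% of all tested, a share that leaves less than 1 gene in a list of this size. At an unadjusted p under 0.05 there were 11, against 15.9% of all tested. None was called in musculus against the mean of the others in either direction, with 9 at an unadjusted p under 0.05, against 13.6% of all tested. Their median difference in musculus was 0.16 on the log2 scale, with 27 of 44 positive, against 50.7% of all tested. Musculus had the highest mean for 19 of the 44, against 25.6%. Summed intensities, which bright genes dominate, were highest in musculus for electron donors (6934 to 10754 against 4120 to 6102) and cholesterol genes (13854 to 14566 against 9615 to 13171). The same held for transcription regulators (6532 to 8146 against 5500 to 5866), but not for the other dehydrogenases or cyclic AMP signalling.

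Among 4 tested electron donors, which pass electrons to the steroid P450 enzymes, none passed. Fdx1, the ferredoxin that serves CYP11A1, had a mean of 5862 in musculus and 2794 to 3451 elsewhere (adjusted p = 0.504). Cyb5b, a cytochrome b5, had 1213 in musculus and 582.3 to 842.7 elsewhere (adjusted p = 0.189). Cyb5a, the cytochrome b5 that aids the androgen-forming reaction of CYP17A1, stayed between 539.8 and 701.8.

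None of the 11 tested genes of cholesterol uptake, storage and delivery passed. Apoe, a lipoprotein of cholesterol transport, came nearest, at 4285 and 4498 in musculus, 3118 and 2773 in domesticus, 1236 and 1140 in castaneus, and 1111 and 1616 in ssp (limma F test, adjusted p = 0.052). Its order at the top, musculus and then domesticus, was that of Star. Apoe passed with the trended and robust variance model (adjusted p = 0.00162) and with the filter at the 60th percentile (0.015), over alternatives of which the other 14 gave no call. Vdac1, a channel of the outer mitochondrial membrane, was highest in domesticus (192.5 against 55.4 to 75.4) and Npc1, a lysosomal cholesterol transporter, in castaneus (612.2 against 207.7 to 312.4), without passing.

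Of the other steroid dehydrogenases and reductases, 7 of 23 listed were tested and none passed. Hsd17b12 had means from 58.8 in ssp to 274.1 in domesticus, Hsd3b7, of bile acid synthesis, from 118.3 in ssp to 422.7 in musculus, and Hsd17b11 from 149.1 in ssp to 448.6 in domesticus (adjusted p = 0.0605). These 3, named for their wide span, were lowest in ssp, and the other 4 tested, Hsd17b2, Hsd17b4, Hsd17b10 and H6pd, were lowest in domesticus. None of the 12 tested transcription regulators passed. The widest spans were those of Esr1, oestrogen receptor alpha (33.2 to 209.7), Cebpb (53.5 to 322.3) and Creb1 (66.5 to 310.3). Nr5a1, which encodes SF-1 and was looked up after its values were seen, had a mean of 4175 in musculus and 2263 to 2454 in the other groups (adjusted p = 0.265). None of the 10 tested genes of cyclic AMP signalling passed, and their widest spans were those of the phosphodiesterase Pde4b (2.66-fold), the adenylyl cyclase Adcy9 (2.39-fold) and Akap1 (1.64-fold).

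**Figure D4:**
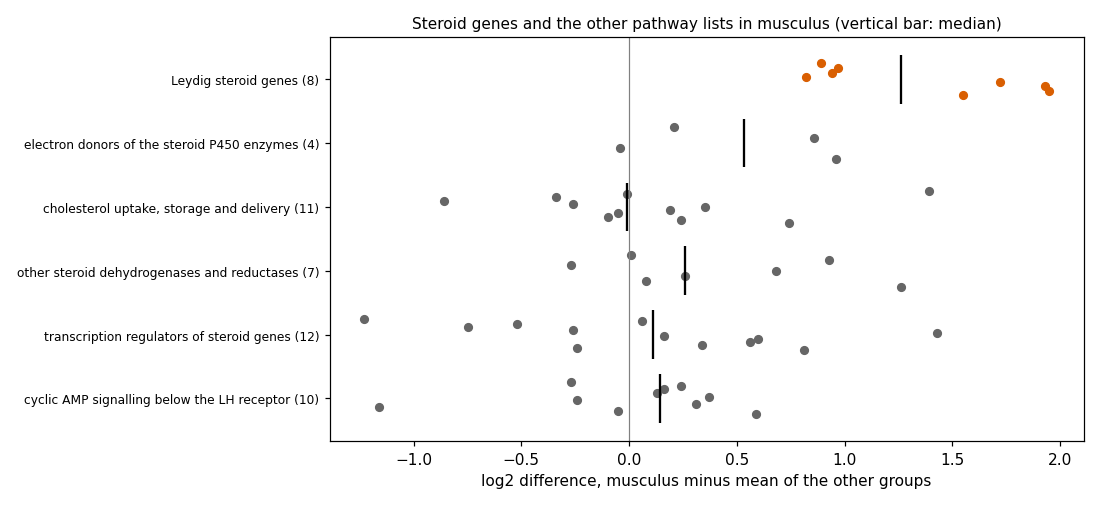
Log2 difference of musculus from the mean of the other 3 groups, 1 point per gene, with the number of genes in brackets and a bar at the median. It is shown for the 8 genes measured, labelled steroid genes with Insl3 included, and for the 5 other pathway lists. The 8 genes lie between 0.82 and 1.95 with a median of 1.26, and the medians of the other lists lie between -0.01 and 0.53.

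Other Leydig cell genes, outside steroid synthesis, were mixed in musculus. Of 16 listed, 13 were tested, 6 had a positive difference and the median was -0.02. The 1 call in musculus was Ptgds, by an _f_at probe set, where 0.530% of all tested were called higher. Ptgds read 17114 and 21600 in musculus and 965.2 to 2502 on the other 6 arrays. Of the others, 3 are named after their values were seen. Fabp3, a fatty acid binding protein, read 2087 and 1672 in musculus and 307.5 to 1400 elsewhere without passing. Aldh1a1, a retinaldehyde dehydrogenase, was highest in domesticus, at 7532 and 9382. Klk1b22, a kallikrein measured by an _f_at probe set, was lowest in musculus, at 529.6 and 571.4 against 799.3 to 1190. The summed intensity of the 13 was 29615 to 34549 in musculus and 9780 to 19647 elsewhere. Without Ptgds it was 12501 to 12949 in musculus, within the 8615 to 17145 of the other arrays.

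The summed markers of red blood cells and of macrophages were also highest on the musculus arrays, but no gene of either list was called in musculus. The 3 tested red blood cell genes summed to 14001 and 17707 in musculus and 1576 to 5568 elsewhere, mostly through Hba-a1, an alpha globin, at 13328 and 16971 against 1364 to 4975. Alas2, of haem synthesis in red cells, was also highest in musculus, and Slc4a1, the red cell anion exchanger, was not, at 31.3 and 25.1 against 18.4 to 174.6. Of 12 tested macrophage genes, 11 had a positive difference in musculus, against 50.7% of all tested. The 12 summed to 5370 to 6011 in musculus against 2715 to 4782. Only Cd68, C1qa and C1qc had both musculus arrays above the other 6, as for 6.37% of all tested. Cd74, H2-Aa and H2-Ab1, among the 11, had their highest means in castaneus or domesticus and their lowest in ssp. By limma's F test H2-Aa (adjusted p = 0.0306) and Slc4a1 (0.0324), 1 gene of each list, differed among the 4 groups. Slc4a1 was highest in ssp. The 17 spermatid genes had a median difference of -0.25 in musculus, with 3 positive, and a sum of 292583 to 362179 against 326564 to 452015. Sertoli cell genes, 11 tested, summed to 15010 to 15160 in musculus, inside the 12748 to 18979 of the other arrays. Of 5 adrenal cortex genes 2 were tested, Mrap and Cyp21a1, and they summed to 648 to 937 against 499 to 728. For 7 spermatogonial genes, 7 of spermatocytes and 6 of peritubular myoid cells, the musculus sums lay inside those of the other arrays. Among them Syce2, of spermatocytes, differed by limma's F test (adjusted p = 0.0321), with its lowest mean in ssp. Endothelial genes, 7 tested, summed to 1558 to 1645 in musculus and 633 to 1628 elsewhere. Of 10 tested genes of striated muscle, 1 was called higher in musculus, against 0.530% of all tested in that direction, and 1 lower. By the F test 4 of the 10 differed, against 1.76% of all tested, namely Myh7, Tnnc1, Ckmt2 and Atp2a1. Ckmt2 was lowest in ssp, with a mean of 36.1 against 543.4 to 1192. Atp2a1 was highest in ssp, with a mean of 336.4 against 54.8 to 59.7. Myh7, a myosin heavy chain measured by an _f_at probe set, had a mean of 789.6 in musculus against 45 to 166.5 elsewhere (log2 difference 3.32, limma adjusted p = 0.00512). Tnnc1, a troponin, lay at the floor in musculus and had means of 19.7 in domesticus, 358.1 in castaneus and 502.8 in ssp (adjusted p = 0.00512). The 10 summed to 2031 to 2266 in musculus and 1981 to 2846 elsewhere. The part of these cells in the differences of the steroid genes was not tested.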

How the data were processed

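The authors deposited linear intensities, 1 per probe set and array, which were used without further scaling. Every array had a mean near 496 after trimming 2% at each end, so the deposited values had already been scaled. The summary method, its version and the build are not stated in the sources used here. Values below the 10th percentile (18.7) were raised to it and log2 was taken. Probe sets that reached the 40th percentile of their array on at least 2 arrays were tested, 8874 in all, with limma 3.58.1 in R 4.3.3: 1 mean per group over all 8 arrays, with 4 residual and 2.34 prior degrees of freedom, and Benjamini-Hochberg adjustment over all probe sets tested. A call needed an adjusted p under 0.05 and a log2 difference of at least 1. The fit was tested on simulated data.

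Group values are geometric means of 2 arrays, whose number limits the precision. Symbols came from the platform annotation, updated through Entrez numbers to a RefSeq table of GRCm38.p6, which 10817 probe sets matched. Whether sequence differences between the mice lie under the probes was not tested. Members and lists were chosen with earlier results of these data known. All probe sets of members are described. Of each pathway list, genes that passed are named, or else the 3 with the widest span. The genes most alike are the 8 with the highest correlation with the mean member profile. For a gene with several probe sets outside the members, the brightest tested was used.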

Additional observations from a re-analysis of the deposited data

How the results depend on the processing

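The number of member probe sets that differed among the 4 groups, 2, became 0 without a filter, 4 with the filter at the 60th percentile, 4 with the trended and robust variance model and 0 with the replicate number as a block, and was 0 in each of the 8 fits that left out 1 array. Over all probe sets tested the same count was 156 of 8874, 31 of 12422 without a filter, 309 of 5882 with the filter at the 60th percentile, which tested 6 of the 11 members, 383 with the trended and robust model and 42 with the block. The 3 calls in musculus became 1 without a filter and 0 to 1 with 1 array left out, and the other settings gave 2 to 4, the block ending that of Hsd3b1 (adjusted p = 0.0607). The 1 call in ssp became 0 without a filter, 2 with the filter at the 60th percentile, 0 with median centring, 2 with the trended and robust model, 0 with the replicate block and 0 to 0 with 1 array left out. In castaneus, where no member was called, the stricter filter gave 1, that of Hsd3b6. The 7 calls over the 6 pairs of groups became 2 without a filter, 12 with the filter at the 60th percentile, 2 with median centring, 11 with the trended and robust model, 2 with the replicate block and 0 to 0 with 1 array left out. The 0 pathway genes became 2 with the filter at the 60th percentile (Apoe and Hsd17b11), 1 with the trended and robust model (Apoe) and 0 to 1 with 1 array left out (Cebpb, without ssp replicate 1). The floor at the 5th percentile, quantile normalization and no fold minimum changed none of these counts by more than 1.5 times. The fits that left out 1 array rest on 3 residual degrees of freedom, with the lone array of a group assumed to vary like the others, and these counts were lower over all probe sets too, at 9 to 54 in place of 156. The direction of the difference in musculus turned for the dimmer Star probe set, which ran from -0.02, without castaneus replicate 1, to 0.26, and for the dimmer Cyp17a1 probe set, which ran from -1.99 to 0.70, the latter without musculus replicate 1. With 1 array left out the brighter Cyp17a1 probe set ran from 1.84 to 2.01 and that of Hsd3b1 from 1.54 to 1.90. Replicate differences correlated between groups at 0.026 to 0.171 over probe sets, all 6 above 0 but not all above 0.1, so the replicate numbers were not taken as pairs.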
